A study of Mus musculus with 4 samples.

Results

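The solute carriers are membrane proteins that move ions, sugars, amino acids, metals, vitamins and nucleotides across the plasma membrane and the membranes of mitochondria, lysosomes and synaptic vesicles. Members were selected on their symbols, as Slc or Slco followed by a family number, a letter and a member number, and on raw counts of at least 50 in every library. Of 376 such symbols in the count tables, 244 passed the filter on low counts and 209 met the limit of 50. The count limit used the level of each gene in every library, so a carrier that is low in 1 genotype alone is left out.

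RNA-Seq was performed on 1° mouse oligodendroglial cultures (OGCs), which were made from the forebrain of newborn mice at postnatal days 2 to 4, depleted of microglia and differentiated for 3 days. The ctrl cells carried Zfp276 flox/flox alleles, and the Zfp276cko cells carried the same alleles together with a Sox10::Cre transgene, which deletes exons 2 to 5 of Zfp276, the gene of a zinc finger transcription factor, in cells that have switched on Sox10. Mice for these cultures also carried a Cre-dependent tdTomato reporter at Rosa26 and had a genetic background mixed from C3H and C57Bl/6J, with both sexes used. There were 2 libraries of each genotype, and every preparation came from 3 mice. The comparison asks how the transcripts of the transporters differ when differentiating oligodendroglia lack Zfp276.

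Oligodendrocytes build large amounts of membrane and depend on the uptake of choline, inositol, amino acids and energy substrates, while they pass lactate on to axons through monocarboxylate carriers. Several amino acid exchangers of the Slc7 family work as light chains bound to a common heavy chain, Slc3a2, and the Slc25 family serves the inner membrane of mitochondria. Carriers of the Slc1 and Slc6 families take up glutamate, GABA, glycine, taurine and creatine, and most of the glutamate uptake in brain is carried out by astrocytes.

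Levels are given as normalized counts, that is raw counts scaled by library size and TMM factors to a common depth. Zfp276 itself stood at 1648 and 2230 in ctrl, against 489.5 and 502.6 in Zfp276cko cells, so 25.6% of the ctrl level remained (log2 fold change −1.97, SE 0.18). That difference had an adjusted p of 0.0962 in the edgeR quasi-likelihood test and of 1.17e-14 in DESeq2. Each library held between 21068322 and 26599809 counted reads, of which the members took between 1.475% and 1.541%. Markers of oligodendrocytes were well expressed, with summed levels of 330358 and 440945 for 12 genes in ctrl, against 230426 and 235289 in Zfp276cko cells, and 10 of the 12 had every Zfp276cko value below every ctrl value. The 6 markers of oligodendrocyte precursors summed to 175542 and 128667 in ctrl, against 96107 and 94192 in Zfp276cko cells. Of the 6, 4 were below both ctrl libraries and 2, Gpr17 and C1ql1, were called lower by DESeq2. Gpr17 was the largest part of that sum, with 113405 and 69766 in ctrl, against 43296 and 41092 in Zfp276cko cells. Pdgfra (10049 and 15501 against 11842 and 11561) and Lhfpl3 (11196 and 5622 against 8986 and 9357) overlapped between the genotypes. The part of either list in the levels of the lower carriers was not tested. The 12 microglia markers summed to 56289 and 28727 in ctrl, against 42849 and 44328 in Zfp276cko cells, the 7 tested astrocyte markers to 30845 and 19336 against 26178 and 24603, the 9 neuron markers to 1395 and 6612 against 4316 and 4254, and the 10 tested fibroblast and vessel markers to 8285 and 342 against 509 and 443. In all 4 lists the ctrl libraries lay farther apart than the Zfp276cko libraries did. In such bulk libraries, fewer cells of a type and less RNA per cell cannot be told apart.

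Per kb of exon, the highest mean level among the members was that of Slc25a4, a mitochondrial ADP/ATP carrier. It stood at 4620 and 4872 normalized counts per kb in ctrl, against 3809 and 3863 in Zfp276cko cells. Its relative Slc25a5 followed with 4401 and 4126 against 4263 and 3872, which put it below Slc25a4 in both ctrl libraries and above it in both Zfp276cko libraries. Slc13a3, a carrier of dicarboxylates such as succinate and N-acetylaspartate, had 1982 and 3626 normalized counts per kb in ctrl, against 3351 and 3390 in Zfp276cko cells. Slc22a17, a receptor and carrier for the iron-binding protein lipocalin, the choline carrier Slc44a1 and the neuronal-type glutamate carrier Slc1a1 came next in the order of mean levels. This order depends on the length used, which merges all annotated exons of a gene. For Slc1a1 it is 8257 bases, while its longest coding transcript has 3800. Means over all 4 libraries were above 1000 normalized counts per kb in 13 members and below 100 in 74, with a median of 164 and a range from 5.79 to 4291. The highest members of the remaining substrate classes were Slc48a1, which carries heme, the taurine carrier Slc6a6, the Na-K-Cl cotransporter Slc12a2 and Slc35b2, which brings the sulfate donor PAPS into the Golgi apparatus.

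**Figure D1:**
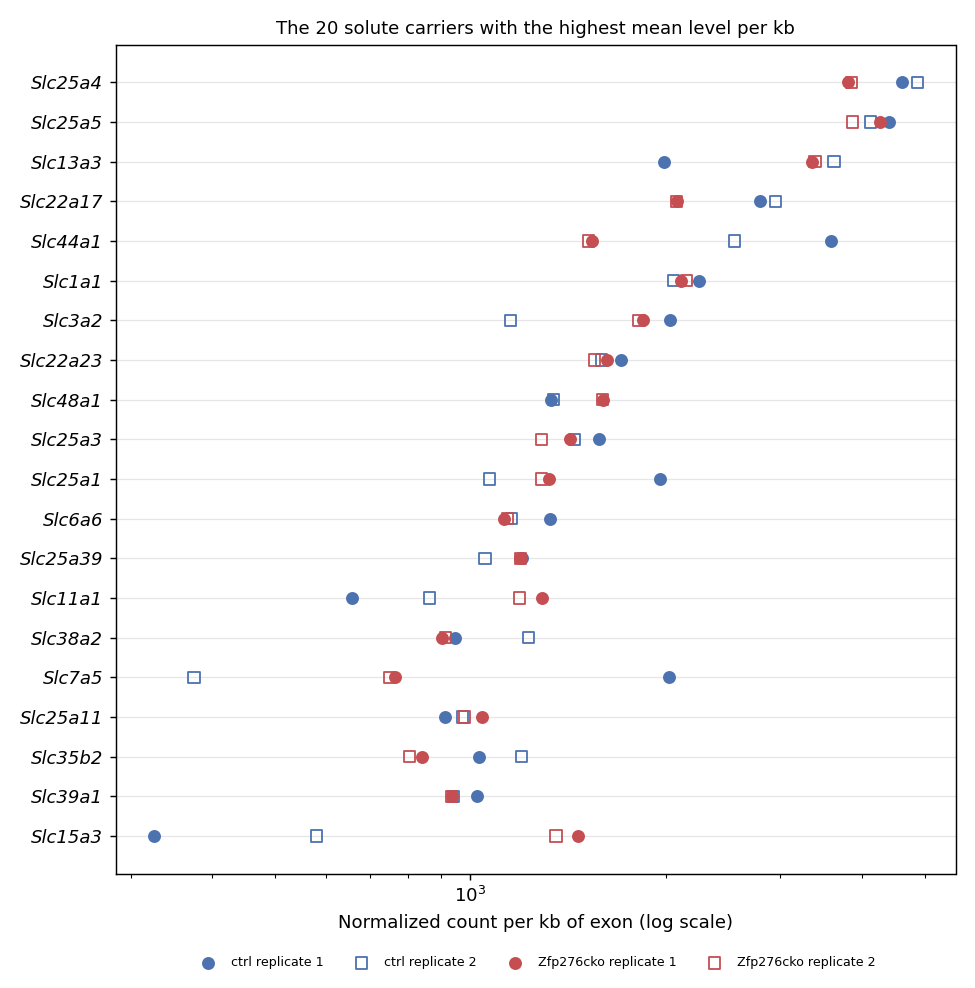
Normalized counts per kb of exon (x axis, log scale) for the 20 members with the highest mean level, with a point for each of the 4 libraries. Slc25a4 lies between 4620 and 4872 in ctrl, below which are the Zfp276cko libraries at 3809 and 3863, whereas the ctrl replicates of Slc7a5 lie at 2023 and 375.

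Across the members, the transporters differed little between the genotypes in either direction. The median log2 fold change of Zfp276cko against ctrl was −0.038, with quartiles at −0.20 and 0.20 and a range from −1.47 for Slc24a3 to 1.81 for Slc28a2, beside −0.0013 for all 15766 tested genes and −0.024 for the 12035 of them that had at least 50 counts in every library. The log2 fold change stayed between −0.6 and 0.6 in 180 of the 209 members. Both Zfp276cko libraries were below both ctrl libraries in 55 members (26.3%) and above both in 52 (24.9%), and the genotypes overlapped in 102. Among all tested genes 23.7% lay below and 26.8% above, and among the genes with at least 50 counts in every library 27.3% and 24.6%. Both shares of the members were thus near the background.

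In the edgeR quasi-likelihood test with adjusted p-values and limits of 0.6 on the log2 fold change and 20 on the mean level, 0 members were called lower and 0 higher. The same test called 0% of all tested genes lower and 0% higher, and the lowest adjusted p of a member was 0.123. At an unadjusted p of at most 0.05 with the same limits on fold change and mean, 8 members were lower and 13 higher, or 3.83% and 6.22%, against 3.02% and 5.11% of all tested genes. DESeq2 called 6 members lower and 10 higher, or 2.87% and 4.78%. Its background was 2.27% lower and 3.02% higher over all genes with an adjusted p, and 2.65% and 2.87% over the genes with at least 50 counts in every library. The share of members called higher was thus above the background by a few genes, which was not tested. All 16 members called by DESeq2 had libraries that did not overlap between the genotypes and passed the edgeR limits at an unadjusted p, with edgeR adjusted p-values from 0.123 to 0.218. The edgeR counts rested on the ctrl pair, since 9 members were called lower and 24 higher without ctrl replicate 1 and 25 and 20 without ctrl replicate 2. With 2 libraries against 2, an exact two-sided permutation test of a single gene cannot go below 0.333.

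**Figure D2:**
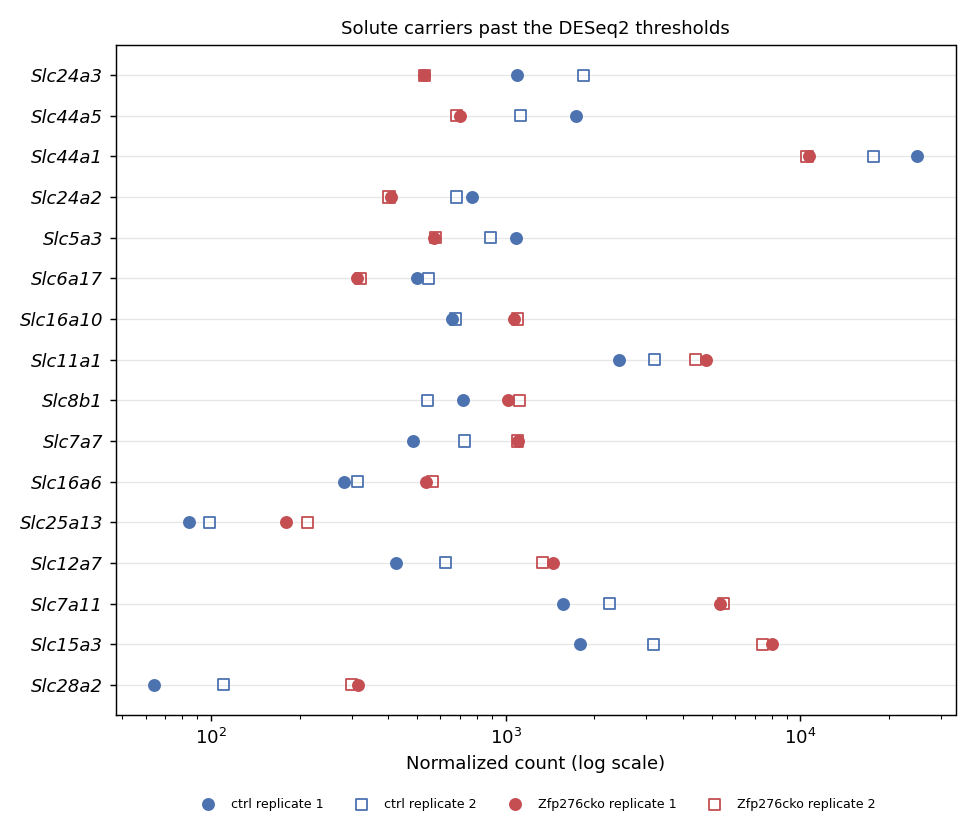
Normalized counts (x axis, log scale) of the 16 members that passed the DESeq2 thresholds, with a point for each of the 4 libraries. For the upper 6 genes every Zfp276cko point lies to the left of every ctrl point and for the other 10 to the right, and the Zfp276cko replicates nearly coincide.

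Choline carriers were among the lower members. Slc44a1 (chr4:53440413-53622478, plus strand), the choline transporter-like protein that feeds the synthesis of phosphatidylcholine, had 24941 and 17710 normalized counts in ctrl, against 10679 and 10536 in Zfp276cko cells. The level was 2.01-fold lower in Zfp276cko cells (log2 fold change −1.01, SE 0.20), with an adjusted p of 0.172 in edgeR and 5.56e-04 in DESeq2. Slc44a5 (chr3:153973436-154271722, plus strand), from the same family, stood at 1730 and 1126 in ctrl, against 698.5 and 680.4 in Zfp276cko cells, a 2.07-fold lower level (log2 fold change −1.05, SE 0.23, edgeR adjusted p = 0.186, DESeq2 adjusted p = 0.00547). Both ctrl libraries were well above both Zfp276cko libraries for these 2 genes. Slc44a2, the third member of the family, had 2448 and 1651 in ctrl, against 2155 and 2053 in Zfp276cko cells, so that its genotypes overlapped (log2 fold change 0.038, SE 0.21).

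Exchangers that use the sodium and potassium gradients to expel calcium formed another pair of lower members. Slc24a3 (chr2:145167754-145642166, plus strand) had 1097 and 1839 normalized counts in ctrl, against 529.3 and 531.8 in Zfp276cko cells, which was 2.77-fold lower (log2 fold change −1.47, SE 0.28, edgeR adjusted p = 0.162, DESeq2 adjusted p = 1.03e-04). This was the strongest decrease of any member, and the ctrl replicates were themselves 1.68-fold apart. Slc24a2 (chr4:86983124-87230477, minus strand) had 770.5 and 681.9 in ctrl, against 408.1 and 402.1 in Zfp276cko cells, which was 1.79-fold lower (log2 fold change −0.84, SE 0.13, edgeR adjusted p = 0.134, DESeq2 adjusted p = 0.00129). The third exchanger of the family among the members, Slc24a5, stood at 155.5 and 68.6 in ctrl, against 120.3 and 134.9 in Zfp276cko cells, with overlapping genotypes. Of its exon bases, 39.5% are shared with Myef2 on the opposite strand, and the strand setting of the counting is not given in the sources used here. Among the sodium-calcium exchangers of the plasma membrane, levels were 397.7 and 404.0 against 409.0 and 409.8 for Slc8a1 and 360.9 and 481.6 against 420.8 and 408.1 for Slc8a3. Slc8a2, from the same group, had 1592 and 911.5 in ctrl, against 1127 and 1014 in Zfp276cko cells, both between the ctrl replicates (log2 fold change −0.23, SE 0.29). By contrast Slc8b1 (chr5:120511168-120534024, plus strand), the sodium-calcium exchanger of mitochondria, had 717.1 and 542.4 in ctrl, against 1023 and 1118 in Zfp276cko cells, which was 1.70-fold higher (log2 fold change 0.77, SE 0.18, edgeR adjusted p = 0.189, DESeq2 adjusted p = 0.0365). Without ctrl replicate 2 the log2 fold change of Slc8b1 was 0.57, under the limit of 0.6.

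The remaining 2 lower members carry an osmolyte and amino acids. Slc5a3 (chr16:92058322-92087473, plus strand), which takes up myo-inositol with sodium, had 1083 and 887.9 normalized counts in ctrl, against 569.2 and 577.3 in Zfp276cko cells, 1.72-fold lower (log2 fold change −0.78, SE 0.14, edgeR adjusted p = 0.161, DESeq2 adjusted p = 0.00611). Slc6a17 (chr3:107467543-107518018, minus strand), which loads neutral amino acids into synaptic vesicles, had 501.0 and 548.0 in ctrl, against 314.0 and 322.2 in Zfp276cko cells, 1.65-fold lower (log2 fold change −0.72, SE 0.14, edgeR adjusted p = 0.165, DESeq2 adjusted p = 0.0130). In both genes the ctrl replicates were close to each other. Slc25a29 and the phosphate carrier Slc20a2 passed the edgeR limits as lower only at an unadjusted p, with log2 fold changes of −0.73 and −0.71. Slc27a4, which moves fatty acids into cells, was lower in both Zfp276cko libraries but did not reach the limit on fold change, with 2822 and 2987 against 2117 and 1960 (log2 fold change −0.51, edgeR adjusted p = 0.162, DESeq2 adjusted p = 0.0158). Slc22a17 was likewise under that limit, with 12586 and 13301 against 9395 and 9371 (log2 fold change −0.46, DESeq2 adjusted p = 0.00939).

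Among the higher members, 3 are carriers of amino acids and peptides. Slc7a11 (chr3:49892526-50443614, minus strand) is the light chain of the exchanger that imports cystine in return for glutamate and so supplies the synthesis of glutathione. It had 1560 and 2259 normalized counts in ctrl, against 5319 and 5487 in Zfp276cko cells. Both Zfp276cko libraries were far above both ctrl libraries, by 2.83-fold on average (log2 fold change 1.5, SE 0.21), with an adjusted p of 0.123 in edgeR and 8.89e-08 in DESeq2, the lowest of any member. Slc7a7 (chr14:54369442-54417780, minus strand), a light chain that exchanges cationic for neutral amino acids, had 484.4 and 725.8 in ctrl, against 1098 and 1101 in Zfp276cko cells. This was 1.82-fold higher (log2 fold change 0.86, SE 0.22, edgeR adjusted p = 0.218, DESeq2 adjusted p = 0.0337). The heavy chain Slc3a2, which both need at the plasma membrane, had 7165 and 4065 in ctrl, against 6495 and 6412 in Zfp276cko cells, with both Zfp276cko libraries between the ctrl replicates (log2 fold change 0.20, SE 0.29). Other light chains stood closer to ctrl. Slc7a6 had 1509 and 1581 against 1499 and 1468, and Slc7a8 1167 and 787.7 against 942.0 and 993.2. Slc7a5, which imports large neutral amino acids, had 7501 and 1392 in ctrl, against 2840 and 2779 in Zfp276cko cells, so that its ctrl replicates differed 5.39-fold, the widest distance among the members, and its log2 fold change of −0.66 (SE 0.80) turned to 1.01 without ctrl replicate 1.

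The promoter windows of both light chains, which RefSeq places on GRCm38.p6 (mm10) from 250 bases before to 50 bases after the start of a transcript, hold the letters TGATGCAA, the combined CHOP and ATF4 response element of the amino acid response. They are shown because these 2 Slc7 members moved the same way, with the letters in capitals on whichever strand they were found.
Slc7a11 (chr3:50443564-50443863, minus strand): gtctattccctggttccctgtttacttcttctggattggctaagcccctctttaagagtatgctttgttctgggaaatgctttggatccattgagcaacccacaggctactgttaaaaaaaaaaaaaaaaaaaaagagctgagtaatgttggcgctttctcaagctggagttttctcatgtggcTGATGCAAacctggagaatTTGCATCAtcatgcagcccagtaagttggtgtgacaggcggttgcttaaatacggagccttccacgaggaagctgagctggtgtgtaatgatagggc
Slc7a7 (chr14:54417895-54418194, minus strand): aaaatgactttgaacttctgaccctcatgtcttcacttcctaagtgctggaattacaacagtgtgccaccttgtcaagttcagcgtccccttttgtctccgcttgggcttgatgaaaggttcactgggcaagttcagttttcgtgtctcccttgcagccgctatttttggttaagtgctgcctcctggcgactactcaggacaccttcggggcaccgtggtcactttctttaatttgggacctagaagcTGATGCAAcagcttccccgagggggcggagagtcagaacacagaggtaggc
In Slc7a11 the letters begin 66 bases before the start and, on the other strand, 47 bases before it. In Slc7a7 they begin 1 base before the transcript start in the window shown. In the other window of the gene (chr14:54417653-54417952) they begin 243 bases before its transcript start. These windows overlap and hold the same site. Both strands of all 32851 windows were searched, and 294 (0.89%) held the letters at least once and 2 (0.006%) held at least 2 copies. Of the 162 members with a window, 4 (2.47%) held them, against 1.03% of all genes with a window, the other two being Slc1a4 and Slc50a1, with log2 fold changes of −0.21 and 0.13. Of the 7 members with a window that DESeq2 called higher, 2 held the letters, against 0 of the 6 called lower. The motif was chosen after the values had been seen, and a match of letters is a description and no evidence of binding. Atf4 itself, the factor of this element, had 7663 and 5442 normalized counts in ctrl, against 6262 and 6516 in Zfp276cko cells, while Nfe2l2, another textbook regulator of Slc7a11, had 1507 and 1403 against 1866 and 1890 (log2 fold change 0.37, edgeR adjusted p = 0.199, DESeq2 adjusted p = 0.243). These are transcript levels, and the activity of neither factor was measured.

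The letters AAAGGGC or AAAGGGT, which lie in the core of the sequence that the study gives for Zfp276 binding, were searched in the same way and on both strands. They occur in 8.89% of all windows, in the windows of 10.15% of genes and in those of 26 of the 162 members (16.05%). Among the members called by DESeq2 that have a window, 1 of the 7 higher ones (Slc28a2) and 0 of the 6 lower ones held these letters.

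Slc15a3 (chr19:10839727-10859362, plus strand), which carries histidine and small peptides out of lysosomes and is best known from immune cells, had 1789 and 3182 normalized counts in ctrl, against 8026 and 7437 in Zfp276cko cells. The level was 3.11-fold higher (log2 fold change 1.64, SE 0.31, edgeR adjusted p = 0.162, DESeq2 adjusted p = 1.48e-05), and 28.1% of its exon bases are shared with Tmem132a on the opposite strand. Slc11a1 (chr1:74375195-74386062, plus strand), which exports divalent metals from the phagosomes of macrophages, had 2433 and 3203 in ctrl, against 4779 and 4408 in Zfp276cko cells, 1.63-fold higher (log2 fold change 0.70, SE 0.17, edgeR adjusted p = 0.195, DESeq2 adjusted p = 0.0223). Its log2 fold change was 0.52 without ctrl replicate 1, under the limit of 0.6. For both genes and for Slc7a7, ctrl replicate 1 was the lower of the ctrl libraries. Of the 12 microglia markers, 6 were at least 2-fold higher in ctrl replicate 1 and 1, Aif1 (1248 and 3204), in ctrl replicate 2. Their sum was higher in ctrl replicate 1, where Csf1r (11409 and 1850) was the largest of them. Relative to that sum, Slc15a3 came to 3.18% and 11.1% in ctrl, against 18.7% and 16.8% in Zfp276cko cells, Slc11a1 to 4.32% and 11.2% against 11.2% and 9.95%, and Slc7a7 to 0.861% and 2.53% against 2.56% and 2.48%, a ratio chosen after the values had been seen. The ratio was also taken for Slc29a3, with 1.98% and 2.88% in ctrl, against 2.39% and 2.59% in Zfp276cko cells. For Slc37a2 it came to 2.08% and 2.42% against 1.54% and 1.57%. The ratio rests on a sum that itself differed between the ctrl libraries, and what it reflects was not tested. Of the 12 microglia markers, 0 had every Zfp276cko value below ctrl and 3 had every value above it, with a median log2 fold change of 0.11. A list of 25 interferon response genes summed to 20263 and 7695 in ctrl, against 117993 and 115914 in Zfp276cko cells, and in 24 of the 25 every Zfp276cko value exceeded every ctrl value. The part of either in the levels of these carriers was not tested.

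Slc12a7, Slc28a2, Slc25a13 and a pair of Slc16 carriers made up the rest of the higher members. Slc12a7 (chr13:73733094-73816754, plus strand), a cotransporter that lets potassium and chloride leave the cell, had 426.2 and 623.4 normalized counts in ctrl, against 1448 and 1330 in Zfp276cko cells, 2.65-fold higher (log2 fold change 1.40, SE 0.22, edgeR adjusted p = 0.132, DESeq2 adjusted p = 1.11e-05). Its relatives Slc12a4 and Slc12a9 had log2 fold changes of −0.048 and −0.18. Slc28a2 (chr2:122426477-122461137, plus strand), which takes up purine nucleosides with sodium, showed the largest increase, from 64.1 and 110.3 in ctrl to 314.9 and 299.0 in Zfp276cko cells (3.52-fold, log2 fold change 1.81, SE 0.32, edgeR adjusted p = 0.156, DESeq2 adjusted p = 1.34e-04). Its level is uncertain, since 99.8% of its longest coding transcript is shared at 95% identity or more with Gm14085, a near-identical gene that had between 1 and 2 raw counts per library. Slc28a2 also had the lowest raw count of all members called, 54 in ctrl replicate 1, just inside the limit of 50. Slc25a13 (chr6:6041218-6217173, minus strand), which exchanges aspartate for glutamate in mitochondria, had 84.3 and 99.0 in ctrl, against 180.1 and 213.1 in Zfp276cko cells, 2.14-fold higher (log2 fold change 1.10, SE 0.23, edgeR adjusted p = 0.178, DESeq2 adjusted p = 0.0253). Slc25a12, which performs the same exchange, had 2111 and 1726 in ctrl, against 1715 and 1630 in Zfp276cko cells (log2 fold change −0.20, SE 0.13), so the low-level partner was higher and the other was slightly lower in both Zfp276cko libraries.

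Slc16a6 (chr11:109450855-109473598, minus strand), an exporter of ketone bodies, had 282.6 and 314.0 normalized counts in ctrl, against 534.8 and 566.2 in Zfp276cko cells, 1.85-fold higher (log2 fold change 0.88, SE 0.14, edgeR adjusted p = 0.139, DESeq2 adjusted p = 0.00240). Of its exon bases, 22.5% are shared with Amz2 on the opposite strand. Slc16a10 (chr10:40033532-40142258, minus strand), which lets aromatic amino acids and thyroid hormones pass, had 658.9 and 676.3 in ctrl, against 1068 and 1094 in Zfp276cko cells, 1.62-fold higher (log2 fold change 0.69, SE 0.099, edgeR adjusted p = 0.123, DESeq2 adjusted p = 0.00279). Both genotypes were tight for these genes. Slc16a1, the lactate carrier of oligodendrocytes, stood at 1228 and 910.4 in ctrl, against 1133 and 1150 in Zfp276cko cells, with overlapping genotypes (log2 fold change 0.094, SE 0.17). Slc16a3, the lactate exporter of glycolytic cells, had 845.3 and 221.7 in ctrl, against 396.3 and 396.9 in Zfp276cko cells, both between the ctrl replicates.

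By substrate class, the medians stayed close to 0. Medians of the 8 classes ran from −0.25 for the 10 carriers of neurotransmitters, taurine, creatine and synaptic vesicles to 0.13 for the 25 carriers of sugars, monocarboxylates and other carbon sources, on the log2 scale. In the first of these 4 members were below and 1 above both ctrl libraries, and in the second 9 were below and 9 above. The 39 mitochondrial carriers had a median of −0.023, with 12 below and 10 above, and the 34 carriers of inorganic ions and protons −0.068, with 9 below and 5 above. The 23 carriers of nucleotide sugars and acetyl-CoA, which serve glycosylation in the Golgi apparatus, had a median of −0.12, with 8 below, 5 above and 0 called by DESeq2. Amino acid and peptide carriers numbered 27, with a median of 0.015, 4 below, 5 above and 3 called higher by DESeq2. For the 23 carriers of metals and heme the median was 0.013, with 4 below and 7 above, and for the 28 carriers of lipids, choline, vitamins, nucleosides and organic ions it was 0.026, with 5 below and 10 above. Among all genes with at least 50 counts in every library, 27.3% lay below and 24.6% above. DESeq2 called 2.65% of those genes lower and 2.87% higher. The counts of single classes are small and were not tested against these shares.

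**Figure D3:**
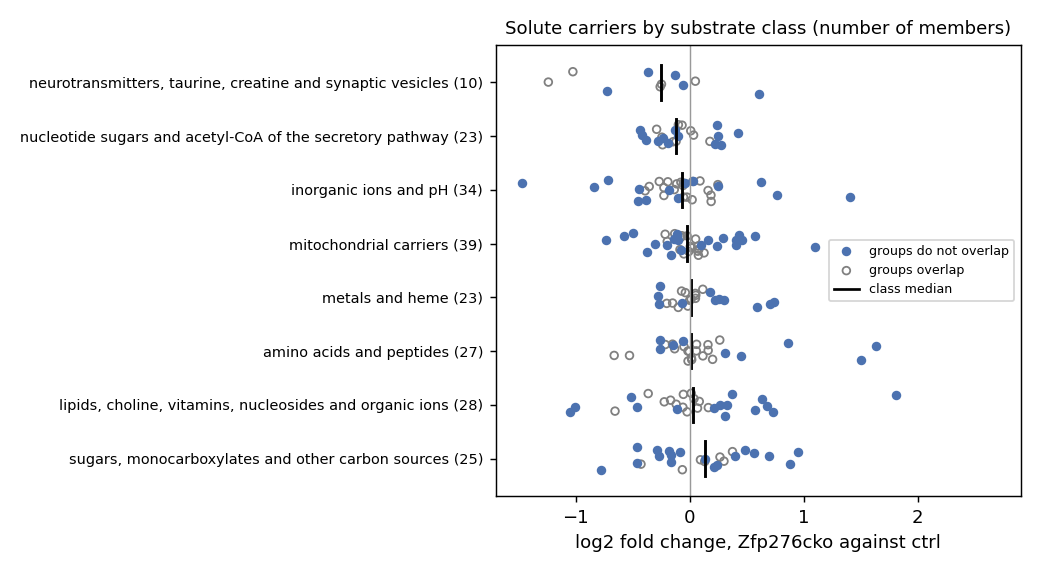
Log2 fold change of Zfp276cko against ctrl (x axis) for the 209 members in 8 substrate classes (y axis), with filled points where the libraries of the genotypes do not overlap and a bar at each class median. Medians lie between −0.25 and 0.13, and single members reach −1.47 and 1.81.

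All 8 Slc6 members had log2 fold changes below 0, from −1.24 for Slc6a11 to −0.056 for Slc6a8, with a median of −0.31, but only 4 had every Zfp276cko value below every ctrl value and Slc6a17 was the 1 called by DESeq2. Slc6a11, a GABA carrier of astrocytes, had 141.3 and 488.4 normalized counts in ctrl, against 143.9 and 122.9 in Zfp276cko cells, so the Zfp276cko libraries were level with ctrl replicate 1. Slc6a12, which carries betaine and GABA, had 634.0 and 160.9 in ctrl, against 199.1 and 191.6 in Zfp276cko cells, level instead with ctrl replicate 2. The glycine carrier Slc6a9 had 1348 and 558.1 against 851.5 and 753.5, and without ctrl replicate 1 its log2 fold change of −0.25 became 0.52, while 38.6% of its exon bases are shared with Ccdc24 on the opposite strand. Steadier were Slc6a6, the taurine carrier, with 11194 and 9773 against 9526 and 9637, and Slc6a8, the creatine carrier, with 3797 and 3928 against 3729 and 3703. The 6 Slc4 carriers of bicarbonate also had values below 0 throughout, from −0.39 to −0.059, with 2 below both ctrl libraries, and that of Slc4a4 turned to 0.75 without ctrl replicate 2.

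None of the 4 glutamate and neutral amino acid carriers of the Slc1 family had libraries that separated the genotypes, and in all 4 both Zfp276cko libraries lay between the ctrl replicates. Slc1a1 had 18550 and 16977 normalized counts in ctrl, against 17412 and 17738 in Zfp276cko cells (log2 fold change −0.015, SE 0.12), and 31.9% of its exon bases are shared with 4430402I18Rik on the opposite strand. Slc1a2, the dominant glutamate carrier of astrocytes, had 4592 and 3023 against 3552 and 3309, and Slc1a3, its partner in glia, 2674 and 6747 against 5259 and 5284. The 7 tested astrocyte markers went both ways between the ctrl replicates. Aqp4 (1838 and 3818), Gja1 (228.0 and 532.3) and Aldh1l1 (315.8 and 616.7) were higher in ctrl replicate 2, as Slc1a3 was. Higher in ctrl replicate 1 were Gfap (17641 and 8463), the most abundant of the 7, Aldoc (7122.5 and 4495.6), Fgfr3 (3092.9 and 954.3) and S1pr1 (606.7 and 455.7). The part of these markers in the level of Slc1a3 was not tested. Slc1a4, which exchanges alanine, serine and cysteine, had 2831 and 1422 against 1904 and 1763.

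Of the 38 carriers on a list of well-known glial transporters, 37 were members. Slc2a1, the glucose carrier of glia and vessels, had 1780 and 1413 normalized counts in ctrl, against 1303 and 1350 in Zfp276cko cells (log2 fold change −0.27, SE 0.14, edgeR adjusted p = 0.448). Slc2a3, the glucose carrier best known from neurons, had 415.6 and 465.9 against 603.5 and 628.0 (log2 fold change 0.48, SE 0.13, edgeR adjusted p = 0.236, DESeq2 adjusted p = 0.211). Both were outside the spread of ctrl without passing a test. Slc12a2, which loads cells with chloride, had 10912 and 7628 against 7543 and 7867. Among carriers of iron and zinc, Slc11a2 had 1929 and 2119 against 2345 and 2241, Slc40a1, the iron exporter, 454.7 and 392.7 against 421.7 and 384.9, Slc39a14 1578 and 1195 against 1611 and 1632, and Slc30a1 954.6 and 712.3 against 844.2 and 960.5. Slc48a1 was higher in both Zfp276cko libraries by a small amount, with 3658 and 3694 against 4395 and 4389 (log2 fold change 0.26, SE 0.087, edgeR adjusted p = 0.298, DESeq2 adjusted p = 0.441). The citrate carrier Slc25a1, which supplies the cytosol with carbon for lipid synthesis, had 4237 and 2315 against 2864 and 2781, and Slc25a4 was lower in both Zfp276cko libraries (log2 fold change −0.31, SE 0.10, edgeR adjusted p = 0.293). The glutamine carrier Slc38a2 had 8381 and 10845 against 7986 and 8098, and Slc35b2 3206 and 3724 against 2616 and 2498 (log2 fold change −0.44, SE 0.11, edgeR adjusted p = 0.219).

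Some of the members with large fold changes did not pass DESeq2. Slc45a3 had 127.0 and 258.8 normalized counts in ctrl, against 376.4 and 369.4 in Zfp276cko cells (log2 fold change 0.95, SE 0.38). Slc39a8, a zinc and manganese carrier, had 117.5 and 196.9 against 238.0 and 288.7 (log2 fold change 0.74, SE 0.32), and Slc29a1, an equilibrative nucleoside carrier, 590.1 and 396.1 against 838.8 and 796.4 (log2 fold change 0.73, SE 0.23). Slc27a1, which moves fatty acids, had 833.5 and 1121 against 1643 and 1488 (log2 fold change 0.68, SE 0.18, DESeq2 adjusted p = 0.0649). In these 4 genes the Zfp276cko values lay entirely above those of ctrl. On the lower side Slc25a18, a mitochondrial glutamate carrier, had 707.6 and 1176 against 666.9 and 598.8 (log2 fold change −0.57, SE 0.28).

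The distance between the ctrl replicates was the main feature of several well-known transporters. In 18 members (8.61%) the ctrl replicates differed by 2-fold or more, against 7.24% of the genes with at least 50 counts in every library, while this held for 0 members between the Zfp276cko replicates, whose largest distance was 1.34-fold. The median absolute log2 ratio was 0.38 for the ctrl pair and 0.061 for the Zfp276cko pair. In 73 members (34.9%) both Zfp276cko libraries lay between the ctrl replicates, compared with 27% of the genes with at least 50 counts in every library. Among the 18 this was so for 16, which a wide ctrl pair and a tight Zfp276cko pair make likely in advance. The share was not taken for other genes with distant ctrl replicates. Ctrl replicate 1 was the higher in 13 of the 18, among them Slc7a5, the urea carrier Slc14a1 (815.7 and 175.5 in ctrl, 374.6 and 395.2 in Zfp276cko cells), Slc6a12, Slc16a3, Slc6a15, Slc4a10, Slco4a1, Slc2a12 and the cationic amino acid carrier Slc7a1 (4137 and 1982 against 3371 and 3465). Ctrl replicate 2 was the higher in the 5 others, Slc6a11, Slc4a4, Slc1a3, the neuronal chloride exporter Slc12a5 (91.4 and 223.9 against 188.2 and 171.0) and Slc45a3. Ctrl replicate 1 also had the higher sum of fibroblast and vessel markers and ctrl replicate 2 the higher sum of neuron markers, and their part in these differences was not tested.

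**Figure D4:**
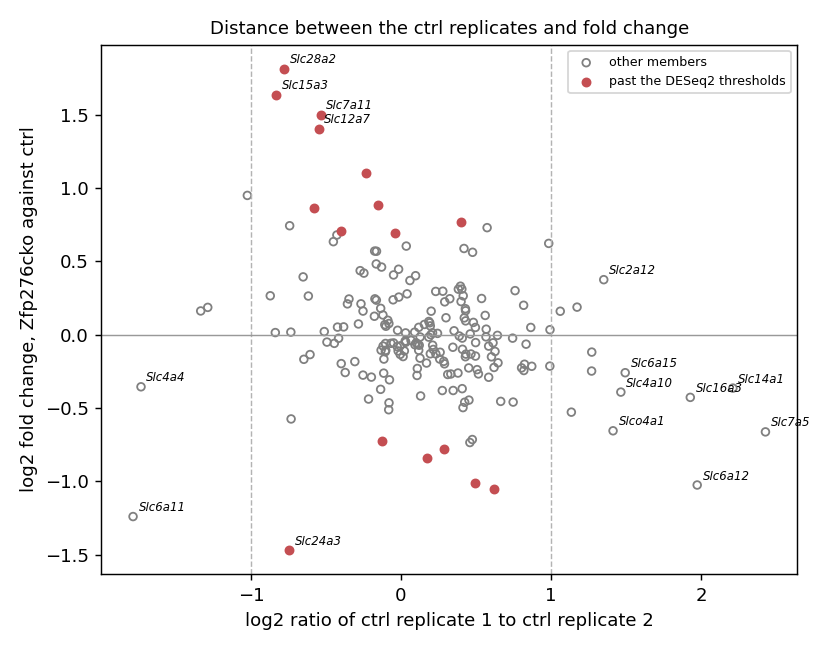
Log2 ratio of ctrl replicate 1 to ctrl replicate 2 (x axis) against the log2 fold change of Zfp276cko against ctrl (y axis) for the 209 members, with filled points for the 16 past the DESeq2 thresholds and dashed lines at a 2-fold distance. The 18 members outside the dashed lines include Slc7a5 and Slc14a1 on the right and Slc6a11 and Slc4a4 on the left, and none of them is among the 16.

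Other transport proteins were compared on lists that did not depend on the Slc names. Of 42 tested transporters with other names, 12 were below and 11 above the ctrl range, at a median of 0.014 on the log2 scale, and 2 were called lower and 3 higher by DESeq2. The called ones were Mfsd2a, the carrier of lysophosphatidylcholine with omega-3 fatty acids, with 309.9 and 180.0 normalized counts in ctrl, against 99.5 and 91.1 in Zfp276cko cells, the sphingosine-1-phosphate exporter Spns2 and, as higher, Tmem104, Mfsd12 and Pqlc3. Spns2 sat just below the limit on fold change in edgeR, at −0.60. Of 28 ABC transporters, 8 were below and 9 above, and the 2 called by DESeq2 were the cholesterol exporters Abca1, with 4990 and 6534 against 13138 and 13191, and Abcg1, with 1705 and 3910 against 6547 and 6633. Of 27 subunits of the Na,K-ATPase and V-ATPase, which set up the gradients that many carriers use, 4 were below, 7 above and 0 called by DESeq2 or edgeR, 2 having an unadjusted p of at most 0.05 in edgeR. Of 20 regulators and partners of solute carriers, 9 were below and 4 above, with a median of −0.068. Those called by DESeq2 were Txnip, which restrains glucose uptake, with 1172 and 1294 against 2672 and 2888, and, as lower, Hif1a, with 9840 and 7618 against 4428 and 4680, and the kinase Stk39, which phosphorylates cation-chloride cotransporters, with 2220 and 2069 against 1167 and 1205. Bsg, the chaperone of the lactate carriers, had 6829 and 6779 against 7431 and 6493.

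Just inside the limit of 50 raw counts were Slc28a2, with 54, 98, 348 and 348 raw counts in ctrl replicates 1 and 2 and Zfp276cko replicates 1 and 2, Slc22a15 with a lowest count of 56, Slc24a5 with 61 and Slc22a4 with 63. Just outside it were Slc1a5 and Slc43a3, each with a lowest count of 48, Slco5a1 with 42 and Slc39a2 with 38. The carriers that the limit removed were not balanced between directions. Of the 35 that were tested, 17 lay above both ctrl libraries and 0 below, with a median log2 fold change of 0.49. The even split of the members thus holds only for carriers that reached the limit in all 4 libraries. The genes that the limit removed also leaned upwards. Of all 15766 tested genes 4233 (26.8%) lay above and 3729 (23.7%) below, against 2956 (24.6%) and 3289 (27.3%) of the 12035 that reached the limit. The shares of all tested genes include those that reached the limit. The removed genes by themselves thus leaned upwards more than these shares show. The limit was set on raw counts, and the ctrl libraries held fewer reads (21311469 and 21068322) than the Zfp276cko libraries (25265366 and 26599809). Whether the removed carriers leaned more than other removed genes was not tested. All 16 members called by DESeq2 kept their sign in edgeR when any of the 4 libraries was left out. This could hardly turn out otherwise, since none of the 16 overlapped between the genotypes. The smallest log2 fold change in size was 0.52, for Slc11a1 without ctrl replicate 1. Without ctrl replicate 2 the smallest was 0.57, for Slc8b1, and both values are under the limit of 0.6. With DESeq2 itself, an alternative chosen after the data had been seen, 14 of the 16 were called again without ctrl replicate 1 and 15 without ctrl replicate 2, but 0 without either Zfp276cko library, when the spread came from the ctrl pair alone.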

How the data were processed

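RNA-Seq libraries (TruSeq Stranded mRNA, single-end) came from 2 ctrl and 2 Zfp276cko preparations. Per the study's methods, the authors aligned the reads with STAR 2.5.4a (mm10). The tables they deposited hold raw read counts for each gene symbol, not normalized. The methods of the study name HTSeq as the counter and the submitters' processing notes list featureCounts 1.5.1, and the strand setting is not given in the sources used here. Without it, reads of overlapping genes on opposite strands cannot be told apart.

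Counts of 53465 gene entries were filtered with filterByExpr and normalized with TMM in edgeR 4.0.16 (R 4.3.3), which left 15766 genes. Genotypes were compared with the edgeR quasi-likelihood test and Benjamini-Hochberg adjustment over all tested genes, and with DESeq2 1.42.0 as an alternative. Genes were called at adjusted p-values up to 0.05, with limits of 0.6 on the size of the log2 fold change and 20 on the mean normalized count. The script was tested on simulated data. The replicates were checked for duplicate deposits: the chi-square statistic per degree of freedom between replicates was 79.99 in ctrl and 5.20 in Zfp276cko cells, above sampling noise in both, and each library counted once. Per the labels and the study's methods, the 2 libraries of a genotype came from independent preparations.

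Named members were those called by edgeR or DESeq2, the 10 with the largest change in each direction among those without overlap, members of a list of glial transporters, the highest member of each of 8 substrate classes and those beside the count limit. A few members chosen in this way are left out of the text. Other genes, among them Atf4, Nfe2l2, Bsg, the relatives of called members and the members with distant ctrl replicates, were chosen after their values had been seen. The members, classes and lists were chosen with earlier results of these data known. Exon lengths and positions came from the GENCODE annotation of mm10 and were found for all 209 members, and promoter sequences from RefSeq. Depth and replicate limits are given with the alternatives, which were DESeq2's size factors, no filter, other count limits, a replicate block, an unadjusted p, edgeR's legacy setting and leaving out each library. DESeq2 with a library left out was added after the data had been seen.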

Additional observations from a re-analysis of the deposited data

How the results depend on the processing

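The edgeR test called 0 members under DESeq2's size factors, without a filter for low counts, with edgeR's legacy setting off, a limit of 200 counts in every library (172 members) and a mean of at least 50 counts (220 members). DESeq2 called 10 higher and 6 lower, and an unadjusted p with the same limits gave 13 and 8. Leaving out each library in turn gave 0 to 24 members called higher and 0 to 25 called lower, 59 to 120 above and 60 to 124 below all ctrl values, and a median log2 fold change from −0.11 to 0.10. Without ctrl replicate 1 the members called were 24 higher and 9 lower, and without ctrl replicate 2 they were 20 and 25, since the spread then came from the Zfp276cko pair alone and the lone ctrl library was assumed to vary like it. Without a Zfp276cko library, 0 were called. With a replicate block, 0 members were called and the median was −0.013. Deviations of libraries with the same number correlated at −0.0050 over tested genes and at −0.146 over the members. The Zfp276cko replicates lay too close together for this to show whether the numbers pair the samples. Without the filter, the log2 fold changes of Slc1a1 and Slc8a3 were 0.0083 and 1.3e-04 instead of −0.015 and −0.024. The sign of these members turned when a ctrl library was left out, with ranges over the 4 removals in parentheses: Slc1a1 (−0.089 to 0.050), Slc1a2 (−0.43 to 0.18), Slc1a3 (−0.36 to 0.97), Slc1a4 (−0.64 to 0.37), Slc3a2 (−0.16 to 0.67), Slc4a4 (−0.97 to 0.75), Slc6a9 (−0.76 to 0.52), Slc7a5 (−1.43 to 1.01), Slc8a3 (−0.22 to 0.19), Slc12a2 (−0.51 to 0.015), Slc16a1 (−0.12 to 0.33), Slc16a3 (−1.10 to 0.84), Slc25a1 (−0.60 to 0.29), Slc30a1 (−0.092 to 0.34), Slc33a1 (−0.30 to 0.12), Slc40a1 (−0.19 to 0.038) and Slc13a3 (−0.10 to 0.75). With all libraries none of these was called by edgeR or DESeq2. The 16 members called by DESeq2 kept their direction under every alternative, which their lack of overlap between the genotypes made nearly certain.

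The precision is limited by 2 libraries per genotype. The libraries were counted to a depth of 21068322 to 26599809 reads, at which the lowest member had a mean normalized count of 82.5.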

Other observations

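Among solute carriers below the limit of 50 counts, chosen after their values had been seen, Slc43a3, a carrier of purine nucleobases, missed it by 2 counts in ctrl replicate 1. It had 57.0 and 72 normalized counts in ctrl, against 318.5 and 288.7 in Zfp276cko cells (4.71-fold higher, log2 fold change 2.23, SE 0.23), with an adjusted p of 0.103 in edgeR and 1.36e-09 in DESeq2. Its fold change was thus larger than that of Slc28a2, the nucleoside carrier just inside the limit. Slc25a43, a mitochondrial carrier, had 16.6 and 13.5 in ctrl, against 48.9 and 39.5 in Zfp276cko cells (log2 fold change 1.55, SE 0.33, edgeR adjusted p = 0.183, DESeq2 adjusted p = 0.200). Slc32a1, the carrier that fills synaptic vesicles with GABA and glycine, was nearly restricted to 3 of the 4 libraries, with 1.2 and 408.5 in ctrl, against 176.4 and 173.5 in Zfp276cko cells. The summed neuron markers had the same order of libraries, with 1395 and 6612 in ctrl, against 4316 and 4254 in Zfp276cko cells. Slco5a1 stood at 49.9 and 720.2 in ctrl, against 328.5 and 372.9 in Zfp276cko cells.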
